A study of Mus musculus with 6 samples.

Results

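The 9 genes described here mark the glutamatergic pyramidal neurons of the cortex and the layers in which they lie: Slc17a7 for pyramidal neurons in general, Cux1 and Cux2 for the upper layers, Rorb for layer 4, Fezf2 and Bcl11b for layer 5, and Tbr1, Foxp2 and Tle4 for the deep layers. They were chosen by gene name, with earlier results of these data known, from a table of 115220 transcripts of 47729 genes. They account for 61 of those transcripts. The RNA was ribosome-associated RNA of D2 receptor-expressing cells of the medial prefrontal cortex (mPFC), isolated by RiboTag, in which Cre switches on a hemagglutinin-tagged Rpl22 subunit so that ribosomes of the Cre-expressing cells can be immunoprecipitated. All mice were adult C57BL/6 males aged 2.5 to 3 months and carried D2Cre, LSL-Flag-Cas9 and RiboTag. The Ctrl group (3 libraries) received AAV GFP, which holds no sgRNA, and the Gsk3sKO in mPFC D2 group (3 libraries, Gsk3sKO below) received AAV Gsk3sgRNA/GFP, and the mPFC was taken 3 weeks later. Cre comes from a bacterial artificial chromosome transgene driven by D2 receptor sequences, and in the mPFC this line is active in layers 2/3 and 5 of the prelimbic and infralimbic cortex and in layer 5 of the cingulate cortex, so the libraries hold only a part of the cortical pyramidal neurons. The labels do not say whether each library is a separate mouse or a pool, and the p-values below rest on the variation among 6 libraries, part or all of which may be technical.

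As background, cortical projection neurons are generated layer by layer, and a small set of transcription factors fixes and then maintains their identity. Cux1 and Cux2 are homeodomain factors of upper-layer neurons, Rorb is a nuclear receptor of layer 4, Fezf2 acts upstream of Bcl11b (CTIP2) in the subcerebral neurons of layer 5, and Tbr1 is a T-box factor of corticothalamic neurons of layer 6. Slc17a7 encodes VGLUT1, the transporter that loads glutamate into synaptic vesicles. Bcl11b and Foxp2 are also well known in the projection neurons of the striatum, where D2 receptor cells are abundant, and several of the factors occur in other neurons, so no gene of the list is a marker of 1 cell type alone.

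The targeted gene, Gsk3b, had gene totals of 35.6, 53.8 and 56.5 in Ctrl and 36.9, 37.0 and 33.6 in Gsk3sKO, in FPKM (mapped fragments scaled by transcript length and library size, summed over a gene's transcripts), so Ctrl library 1 lay within the Gsk3sKO range (log2 difference -0.40, SE 0.19, unadjusted p = 0.0648 in limma). Cas9 cuts can leave a frameshifted transcript in place, so this level is a weak check of the labels. Between 17880 and 22692 genes were above 0 in a library, and all 9 marker genes were above 0 in every library. The sum over 10 GABAergic interneuron genes was high as well, at 1022 to 1353 FPKM in Ctrl and 968 to 1065 FPKM in Gsk3sKO. Of this, Sst alone, a neuropeptide of an interneuron class, gave 652 to 942 FPKM. Other genes of the 10 were low, such as Vip at 3.61 to 9.10 FPKM and Dlx1 at 1.63 to 8.33 FPKM over all libraries. No unprecipitated tissue was among the libraries, and whether the pyramidal markers come from Cre-expressing pyramidal neurons or from RNA carried through the precipitation was not tested. In such bulk samples, fewer cells of a type and less RNA per cell cannot be told apart.

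In 3 of the 9 genes, Cux1, Bcl11b and Cux2, more than 1 transcript had a mean of at least 1 FPKM. For Cux1 and Bcl11b the main forms differ in their coding exons, and the sequences at the points where they part are shown because later values turn on them. Cux1 (chr5:136248135-136567490, minus strand, GRCm38) yields the homeodomain factor and, by a different set of 3′ exons, CASP, a Golgi membrane protein that lacks the DNA-binding domains. The annotated Cux1-201 (24 coding exons) and Cux1-211 (23 coding exons, 13 of them identical to those of Cux1-201) share exon 14 (chr5:136314307-136314403) and then continue into different exons, at chr5:136312643-136313008 in Cux1-201 and at chr5:136257913-136258040 in Cux1-211. Below, the last 30 bases of the shared exon are in lower case and the first 30 bases of the next exon are in capitals, 5′ to 3′ on the transcript.
Cux1-201, homeodomain form: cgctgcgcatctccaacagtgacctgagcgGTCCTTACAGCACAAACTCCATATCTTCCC
Cux1-211, CASP form: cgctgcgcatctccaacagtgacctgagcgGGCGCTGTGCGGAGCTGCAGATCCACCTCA
Bcl11b (chr12:107910403-108003602, minus strand) is listed mainly as Bcl11b-201, with 4 coding exons, and Bcl11b-203, which lacks the third of them, an exon of 216 bases at chr12:107965672-107965887. The shared exon 2 (chr12:107989465-107989830) therefore runs into that exon in Bcl11b-201 and into the last exon in Bcl11b-203, again with the next exon in capitals.
Bcl11b-201, with exon 3: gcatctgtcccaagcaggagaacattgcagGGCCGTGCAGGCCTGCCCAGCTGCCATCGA
Bcl11b-203, without exon 3: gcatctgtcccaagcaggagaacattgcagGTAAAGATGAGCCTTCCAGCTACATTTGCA
The third gene, Cux2 (chr5:121856366-122050102, minus strand), differs in kind: Cux2-201, Cux2-202 and Cux2-210 have the same 20 coding exons and 4278 coding bases and differ only outside them, while its shorter transcripts hold at most 5 coding exons or none.

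The pyramidal neuron gene Slc17a7 (chr7:45163949-45176142, plus strand, 1 listed transcript) was the highest of the 9. Its level was 262, 273 and 264 FPKM in the Ctrl libraries and 253, 261 and 192 FPKM in the Gsk3sKO libraries, a mean of 266 ± 5.51 against 236 ± 38.0 (SD, n = 3). The groups did not overlap, but Gsk3sKO libraries 1 and 2 lay close below the Ctrl range and library 3 stood well below it. The log2 difference (Gsk3sKO minus Ctrl on log2(FPKM + 1), as below) was -0.19, with a 95% interval of -0.54 to 0.16 and an unadjusted p of 0.243 in limma. Without Gsk3sKO library 3 it was -0.05. Its level was at percentile 98.8 of all gene totals tested. The groups did not overlap in 12% of all gene totals tested (8.3% lower and 3.71% higher in Gsk3sKO), and among the 9 markers this was so for Slc17a7, Cux2 and Tbr1, each lower in Gsk3sKO.

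Cux2 and Tbr1, and no other gene of the list, passed the unadjusted threshold of 0.05, both lower in Gsk3sKO. Of all 12874 gene totals tested 6.56% were called in this way (5.2% lower and 1.36% higher in Gsk3sKO), and 0 of the 9 markers passed after Benjamini-Hochberg adjustment over all gene totals in limma, against 6 gene totals of the whole table (0.0466%). After median-ratio rescaling of the libraries the same 2 markers were called, with 4.09% of all gene totals lower and 2.15% higher. The median-ratio factors were 0.955 to 1.06. The FPKM summed over all transcripts differed more, at 608528, 550660 and 414548 in Ctrl and 422109, 398586 and 385795 in Gsk3sKO. Scaling to that sum was not tested. In all, 6 of the 9 log2 differences were below 0 and 3 above, with a median of -0.25, beside a median of -0.06 over all gene totals tested, of which 58.9% were below 0. After median-ratio rescaling these medians were -0.20 and -0.01, with the same number of the 9 below 0.

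**Figure D1:**
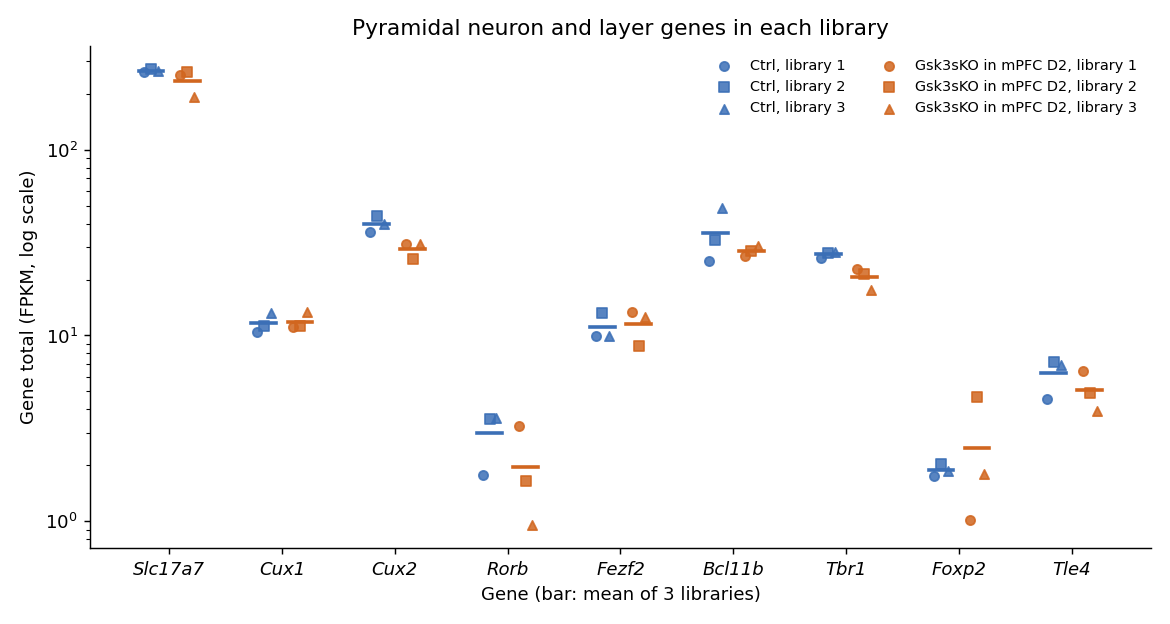
Gene totals of the 9 genes in each of the 6 libraries, in FPKM on a log scale, with Ctrl in blue, Gsk3sKO in mPFC D2 in orange, a symbol for each library number and a bar at each mean. The groups are apart for Slc17a7, Cux2 and Tbr1, and Foxp2 and Rorb, the lowest genes, spread most between libraries.

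Among the upper-layer genes, Cux2 was lower in Gsk3sKO. Its gene total was 35.9, 43.9 and 40.0 FPKM in Ctrl and 31.1, 25.8 and 31.2 FPKM in Gsk3sKO, so that every Gsk3sKO library was below every Ctrl library. The means were 39.9 ± 4.03 and 29.4 ± 3.10 FPKM (SD, n = 3), a log2 difference of -0.43 (SE 0.15, 95% interval -0.77 to -0.09, unadjusted p = 0.0194, adjusted p = 0.688 in limma). Without Ctrl library 2 the unadjusted p was 0.0839, and without Gsk3sKO library 2 it was 0.0731. The result depended on how transcripts of different lengths were added. When each FPKM was multiplied by the transcript's length before summing, which gives the fragments of a gene scaled to library size (fragment total), a choice made after seeing the data, the Cux2 totals were 143, 163 and 177 in Ctrl and 179, 132 and 123 in Gsk3sKO. On this scale the groups overlapped, with Gsk3sKO library 1 above all Ctrl libraries, and the log2 difference was -0.17 (95% interval -0.55 to 0.21, unadjusted p = 0.341).

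The transcripts of Cux2 show where the scales part. Its lead transcript, Cux2-202 (8784 bases), was at 14.4, 7.26 and 9.67 FPKM in Ctrl and 19.3, 13.2 and 12.5 FPKM in Gsk3sKO. Cux2-210 (4697 bases), which has the same coding exons, was at 0, 19.1 and 17.9 FPKM in Ctrl and 0.853, 1.12 and 0 FPKM in Gsk3sKO. Ctrl libraries 2 and 3 were thus high in Cux2-210, and Ctrl library 1 was at 0, as low as the Gsk3sKO libraries. The log2 difference was 0.51 (SE 0.30, unadjusted p = 0.144) for Cux2-202 and -2.20 (SE 1.20, unadjusted p = 0.116) for Cux2-210. Without Ctrl library 1 both were called, in opposite directions, at 0.75 (unadjusted p = 0.0432) and -3.63 (unadjusted p = 0.000407). Summed, the 3 transcripts with all 20 coding exons gave 14.4, 26.7 and 28.0 FPKM in Ctrl and 20.2, 15.4 and 12.5 FPKM in Gsk3sKO, and the groups overlapped. They made up 88.7% to 97.1% of the gene's fragments in a library but only 40.0% to 70.0% of its summed FPKM, because short transcripts weigh more per fragment. The short Cux2-205 (420 bases, 3 coding exons) stood at 9.28 to 13.6 FPKM in Ctrl and 8.59 to 10.7 FPKM in Gsk3sKO (log2 difference -0.15, SE 0.22, unadjusted p = 0.534). Cux2-209 (821 bases, an annotated retained intron) was at 5.30, 0 and 0.0839 FPKM in Ctrl and 0.258, 0.236 and 3.44 FPKM in Gsk3sKO, so that 1 library of each group was high (log2 difference 0.01, SE 0.93, unadjusted p = 0.995). The share of the summed FPKM held by Cux2-202 was 40.3%, 16.5% and 24.2% in Ctrl and 62.1%, 51.2% and 40.0% in Gsk3sKO, with overlap of Ctrl library 1 alone (2-sided exact permutation p = 0.2, adjusted over 7 genes 0.7). StringTie divides reads between overlapping transcripts by estimate, and the split between Cux2-202 and Cux2-210, which differ only outside the coding exons, rests on that estimate.

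Cux1, the other upper-layer homeodomain gene, had nearly the same level in both groups. It was at 10.4, 11.3 and 13.3 FPKM in Ctrl and 11.1, 11.2 and 13.4 FPKM in Gsk3sKO (log2 difference 0.03, 95% interval -0.38 to 0.43, unadjusted p = 0.884). Most of this total was not the homeodomain form. The 3 transcripts that end in the exons of CASP summed to 6.96, 9.56 and 7.67 FPKM in Ctrl and 7.36, 6.82 and 11.7 FPKM in Gsk3sKO, or 57.7% to 87.6% of the gene's FPKM. The 5 transcripts that end in the last coding exon of Cux1-201 summed to 2.40, 1.24 and 1.43 FPKM in Ctrl and 2.02, 3.73 and 0.462 FPKM in Gsk3sKO, or 3.45% to 33.4%. Both forms overlapped between the groups (2-sided exact permutation p = 0.9 for the CASP end and 0.8 for the homeodomain end, where 3 against 3 libraries cannot give less than 0.1). Counted in fragments, the homeodomain end held 14.3% to 61.8% of the gene, since its transcripts are long. Within the CASP end the reads went to Cux1-211 in most libraries (6.96, 1.23 and 7.67 FPKM in Ctrl and 0.762, 6.58 and 11.6 FPKM in Gsk3sKO) and to Cux1-207 in the others (0, 8.32 and 0 FPKM in Ctrl and 4.39, 0.241 and 0.0729 FPKM in Gsk3sKO). Cux1-211 was low just where Cux1-207 was high, in Ctrl library 2 and Gsk3sKO library 1. Cux1-207 shares 14 coding exons with Cux1-201 where Cux1-211 shares 13, and both have the remaining exons of CASP.

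**Figure D2:**
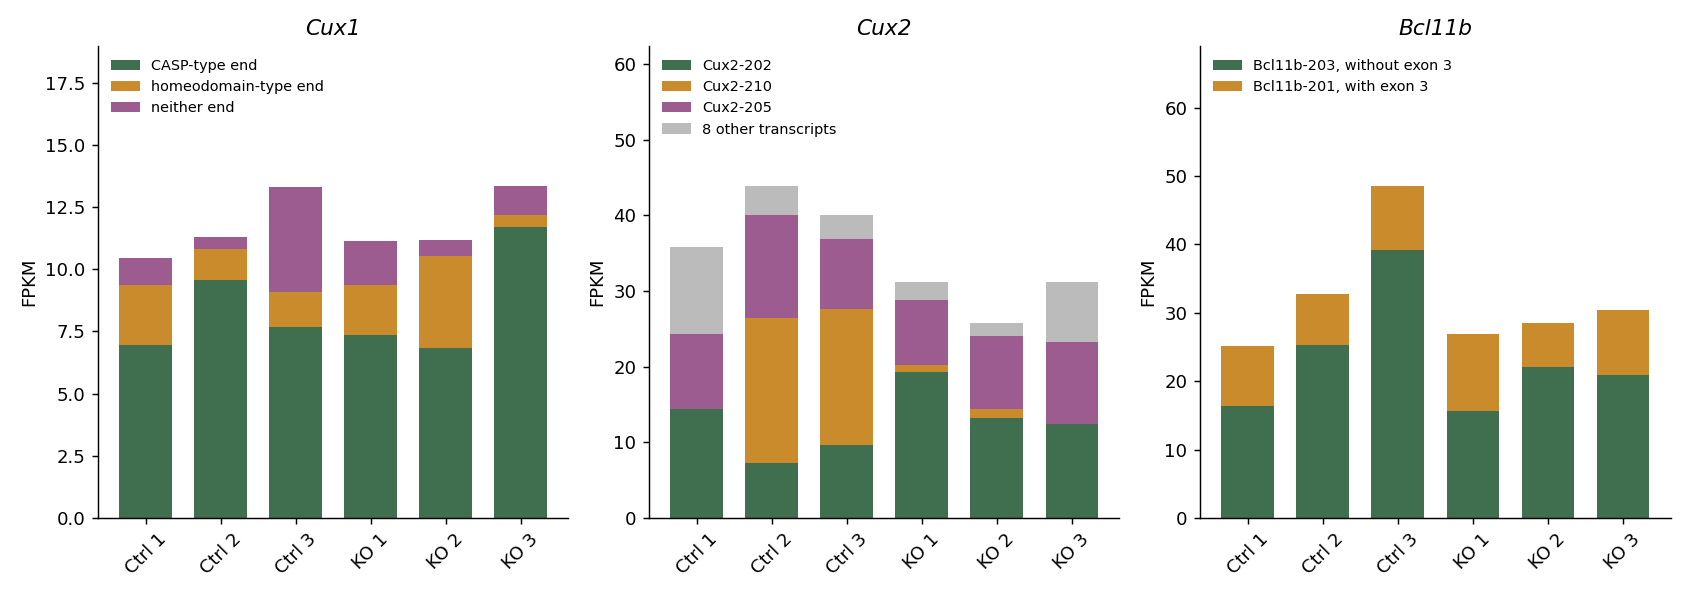
FPKM of the transcript forms of Cux1, Cux2 and Bcl11b, stacked for each of the 6 libraries (KO stands for Gsk3sKO in mPFC D2), with each bar's height the gene total. Cux2-210 is present in Ctrl libraries 2 and 3 and nearly missing in the other 4, the CASP end is the largest part of Cux1 in all 6, and the Bcl11b form without exon 3 is the largest in all 6.

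The layer 4 gene Rorb (chr19:18930605-19111196, minus strand) was low, at 1.77, 3.56 and 3.58 FPKM in Ctrl and 3.26, 1.64 and 0.950 FPKM in Gsk3sKO. The groups overlapped widely, and the log2 difference of -0.47 had a 95% interval of -1.32 to 0.39 (unadjusted p = 0.245). Its lead transcript, Rorb-203 (9293 bases), held 63.7% of the gene's FPKM in Ctrl library 2 and 96.5% to 100% in the other 5 libraries, and the shares overlapped between groups (2-sided exact permutation p = 1). As background, the mouse mPFC is an agranular cortex with little or no layer 4.

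Of the layer 5 genes, Fezf2 (chr14:12342094-12348189, minus strand, 1 listed transcript) was at 9.96, 13.2 and 9.96 FPKM in Ctrl and 13.4, 8.77 and 12.6 FPKM in Gsk3sKO. Neither group was the higher (log2 difference 0.06, 95% interval -0.44 to 0.55, unadjusted p = 0.803). Bcl11b was at 25.2, 32.7 and 48.6 FPKM in Ctrl and 26.8, 28.5 and 30.4 FPKM in Gsk3sKO. The Gsk3sKO libraries lay within the Ctrl range, which was set by Ctrl library 3 at the top and Ctrl library 1 at the bottom. The log2 difference was -0.26 (95% interval -0.77 to 0.26, unadjusted p = 0.292), was -0.01 without Ctrl library 3 and passed the unadjusted threshold without Ctrl library 1 (-0.47, unadjusted p = 0.0468).

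The spread of Bcl11b in Ctrl lay in the form without exon 3. Bcl11b-203 (2888 bases) was at 16.4, 25.3 and 39.2 FPKM in Ctrl and 15.6, 22.1 and 20.9 FPKM in Gsk3sKO. Bcl11b-201 (8111 bases) was at 8.79, 7.44 and 9.40 FPKM in Ctrl and 11.2, 6.35 and 9.45 FPKM in Gsk3sKO. The first varied between libraries far more than the second, and neither differed between groups beyond that spread (unadjusted p = 0.2998 and 0.878). The share of Bcl11b-203 in the gene's FPKM was 65.1% to 80.7% in Ctrl and 58.3% to 77.7% in Gsk3sKO (2-sided exact permutation p = 0.6), and 33.2% to 59.8% of the fragments over all libraries.

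Ctrl library 3, the highest in Bcl11b, was also the highest in the striatal genes. The 10 striatal genes summed to 151, 188 and 423 FPKM in Ctrl and 274, 218 and 400 FPKM in Gsk3sKO. Drd2, which encodes the D2 receptor, was at 1.58, 6.02 and 14.1 FPKM in Ctrl and 8.32, 5.96 and 7.28 FPKM in Gsk3sKO, and Adora2a, the adenosine receptor of striatal D2 neurons, was at 0, 1.29 and 5.27 FPKM in Ctrl and 2.72, 1.87 and 2.55 FPKM in Gsk3sKO. Thus Ctrl library 1 was lowest and Ctrl library 3 highest of all 6 libraries for Drd2, Adora2a, the striatal sum and Bcl11b. Gsk3sKO library 3 had a striatal sum near that of Ctrl library 3 and a Bcl11b level of 30.4 FPKM. Isl1, a factor of the striatal lineage, was at 0 in 3 libraries and at most 0.757 FPKM. The part of these cells in the Bcl11b values was not tested.

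**Figure D3:**
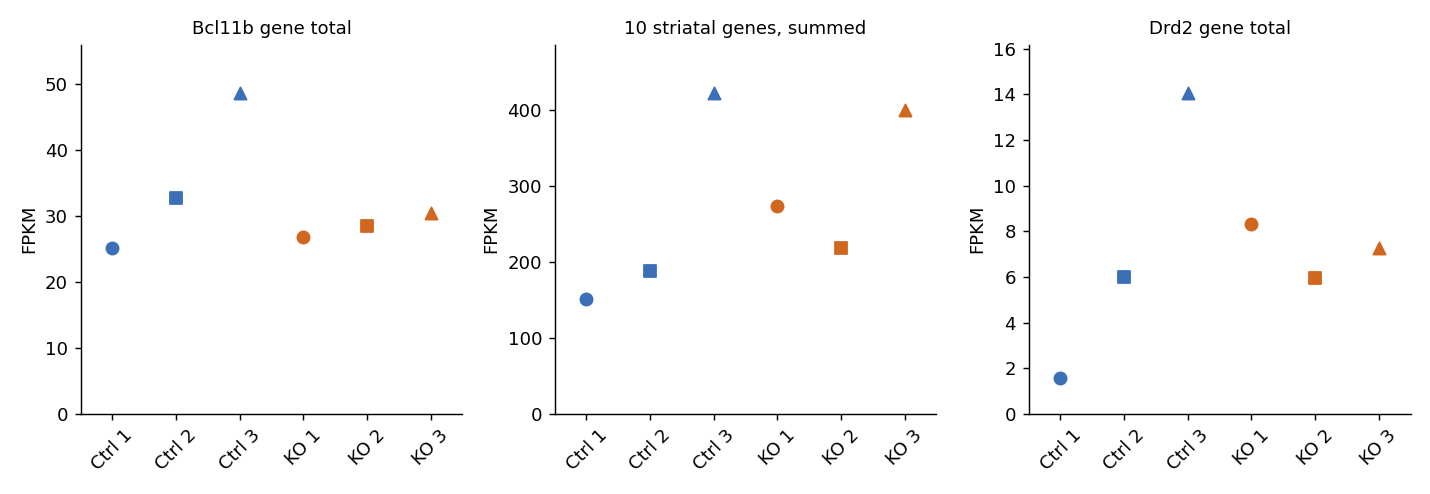
Gene total of Bcl11b, sum over 10 striatal projection neuron genes, and gene total of Drd2, in FPKM, in each library (KO stands for Gsk3sKO in mPFC D2, blue is Ctrl, orange is Gsk3sKO). Ctrl library 3 is the highest in all 3 panels and Ctrl library 1 the lowest.

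Among the deep-layer genes, Tbr1 (chr2:61802930-61814114, plus strand) was lower in Gsk3sKO. It was at 26.1, 28.0 and 28.2 FPKM in Ctrl and 22.7, 21.5 and 17.6 FPKM in Gsk3sKO. Each Gsk3sKO library was below each Ctrl library, and the Ctrl libraries lay close together. The means were 27.4 ± 1.18 and 20.6 ± 2.66 FPKM (SD, n = 3), a log2 difference of -0.40 (SE 0.15, 95% interval -0.75 to -0.05, unadjusted p = 0.0283, adjusted p = 0.726 in limma). Unlike Cux2, it had nearly the same difference as a fragment total (-0.40, unadjusted p = 0.0214), with 103, 108 and 106 in Ctrl and 88.7, 82.4 and 69.0 in Gsk3sKO. It was the only one of the 9 called on that scale, where 5.72% of all fragment totals tested were called, and with Slc17a7 the only one without overlap between groups, where 11.5% had none. The unadjusted p was 0.0822 without Ctrl library 2, 0.0756 without Ctrl library 3 and 0.0721 without Gsk3sKO library 3, so the call needed all of these libraries.

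In transcripts, Tbr1-201 gave the only call among the 9 genes, close to the threshold. Tbr1-201 (3977 bases), which held 92.5% to 98.5% of the gene's FPKM, was at 25.7, 26.8 and 26.1 FPKM in Ctrl and 22.1, 20.4 and 17.2 FPKM in Gsk3sKO (log2 difference -0.39, SE 0.16, unadjusted p = 0.0479, adjusted p = 0.842 in limma). The call was lost with no filter (unadjusted p = 0.0533), after median-ratio rescaling (unadjusted p = 0.0611) and when any library but Gsk3sKO library 1 was left out (unadjusted p from 0.0734 to 0.124). Of the 61 transcripts of the 9 genes, 53 were above 0 in some library, 15 had a mean of at least 1 FPKM and were tested, and 1 of these was called, or 6.67%, beside 5.56% of all 21584 transcripts tested (3.75% lower and 1.81% higher in Gsk3sKO). After adjustment in limma 0 of them passed, and 0% of all transcripts tested. The groups did not overlap for 2 of the 15, those of Tbr1 and Slc17a7, or 13.3%, beside 11.2% of all transcripts tested (6.96% lower and 4.28% higher).

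Within a library, Tbr1 was also lower relative to Slc17a7. The Tbr1 gene total was 9.94%, 10.3% and 10.7% of that of Slc17a7 in Ctrl and 8.94%, 8.23% and 9.16% in Gsk3sKO, which do not overlap. For Cux2 the same ratio was 13.7%, 16.1% and 15.1% in Ctrl and 12.3%, 9.88% and 16.3% in Gsk3sKO, where Gsk3sKO library 3 was above all Ctrl libraries. The other ratios formed, of Bcl11b and Cux1 to Slc17a7 and of Tbr1 to Cux2, also overlapped between the groups. These ratios were chosen after the values were seen and carry no test. A ratio is free of a scale factor of the library, and it shows unequal change rather than which of its genes changed.

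Foxp2 (chr6:14901349-15441977, plus strand) and Tle4 (chr19:14448150-14598051, minus strand) gave no call. Foxp2, a forkhead factor, was at 1.75, 2.03 and 1.88 FPKM in Ctrl and 1.01, 4.66 and 1.79 FPKM in Gsk3sKO (log2 difference 0.14, 95% interval -0.77 to 1.04, unadjusted p = 0.738). Its high value in Gsk3sKO library 2 came from Foxp2-217, a noncoding transcript of 349 bases that was at 2.62 FPKM there and at 0 in the other 5 libraries. Without that library the log2 difference was -0.28, and for the fragment total it was -0.17. The lead transcript, Foxp2-207 (6760 bases, all 16 coding exons of Foxp2-201), was at 0.930, 0.825 and 1.61 FPKM in Ctrl and 0.356, 0.639 and 0.505 FPKM in Gsk3sKO, with a mean under 1 FPKM, so it was not tested. Foxp2-201, with the same coding exons, was at 0 in all Ctrl libraries and at 0.606, 0 and 0.977 FPKM in Gsk3sKO. Summed, these 2 transcripts gave 0.930, 0.825 and 1.61 FPKM in Ctrl and 0.962, 0.639 and 1.48 FPKM in Gsk3sKO, and the groups overlapped (2-sided exact permutation p = 0.8). The share of Foxp2-207 alone in the gene's FPKM was 53.2%, 40.7% and 86.1% in Ctrl and 35.3%, 13.7% and 28.1% in Gsk3sKO. This was the only lead-transcript share of 7 genes without overlap between the groups (2-sided exact permutation p = 0.1, the smallest that 3 against 3 libraries allow, adjusted over the 7 genes 0.7). Tle4, a Groucho corepressor, was at 4.55, 7.24 and 6.95 FPKM in Ctrl and 6.47, 4.89 and 3.91 FPKM in Gsk3sKO, with overlap (log2 difference -0.25, 95% interval -0.84 to 0.34, unadjusted p = 0.360). Tle4-201 held 80.6% to 100% of it.

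**Figure D4:**
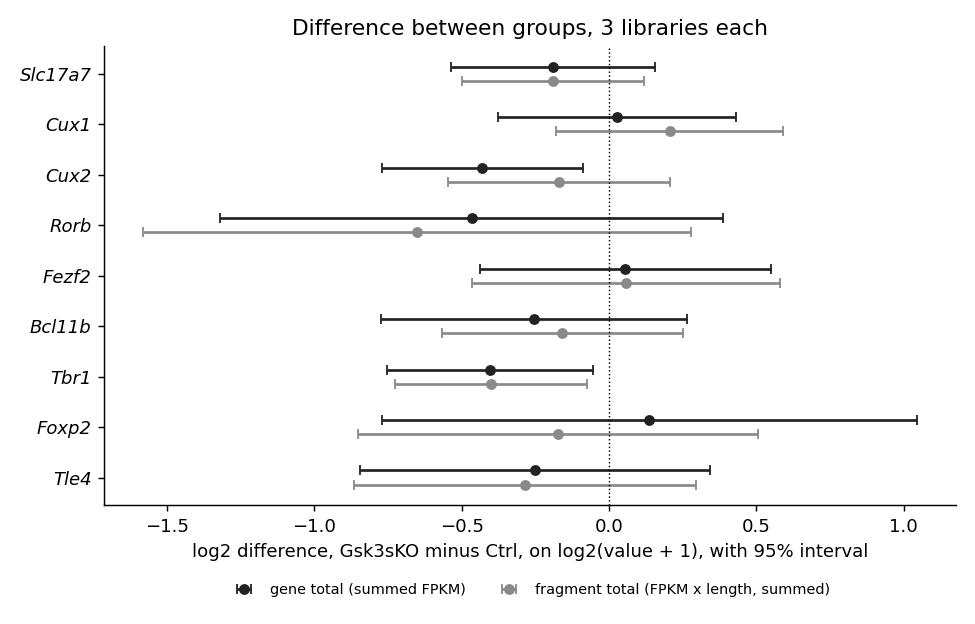
Log2 difference between Gsk3sKO in mPFC D2 and Ctrl (3 libraries each) with its 95% interval from limma, for gene totals (black) and fragment totals (grey). The intervals of Tbr1 lie below 0 on both scales, that of Cux2 only for the gene total, and Foxp2 changes side.

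FPKM is per length, so the levels can be set in order. In Ctrl the means fell from Slc17a7 (266 FPKM) through Cux2 (39.9), Bcl11b (35.5), Tbr1 (27.4), Cux1 (11.7), Fezf2 (11.04), Tle4 (6.25) and Rorb (2.97) to Foxp2 (1.88 FPKM). The ranges of the 3 Ctrl libraries overlapped between Cux2 and Bcl11b, Bcl11b and Tbr1, Cux1 and Fezf2, and Rorb and Foxp2, so those neighbours were not separated beyond their spread. The other 4 neighbouring pairs did not overlap. In Gsk3sKO the first 7 places were the same, with Foxp2 and Rorb exchanged and overlapping. The Foxp2 total there includes the noncoding Foxp2-217, at 2.62 FPKM in Gsk3sKO library 2 alone. The Cux1 total is mostly CASP, and its homeodomain end alone had a Ctrl mean of 1.69 FPKM, below that of Foxp2. Slc17a7 stood above each of the other genes in every library.

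Of 35 other projection neuron genes listed for comparison, 33 passed the filter and 5 were called, or 15.2%, beside 6.56% of all gene totals. After adjustment 0 passed in limma. The called genes lay on both sides, 3 lower and 2 higher, and in different layer classes, with a median log2 difference of -0.11 over the 33 and 22 of them below 0 (18 after median-ratio rescaling). Neurod1 alone of the 5 stayed past the unadjusted threshold whichever library was left out. The call of Mef2c was lost without Ctrl library 1 or any 1 of the 3 Gsk3sKO libraries, that of Calb1 without Ctrl library 1 or Gsk3sKO library 1 or 2, that of Etv1 without Ctrl library 3 or Gsk3sKO library 2, and that of Tshz2 without Ctrl library 3 or Gsk3sKO library 1 or 2. Among genes of all layers, Neurod1, a bHLH factor of maturing neurons, was lower (10.6, 7.96 and 7.38 FPKM in Ctrl, 5.37, 5.28 and 4.43 FPKM in Gsk3sKO, log2 difference -0.67, unadjusted p = 0.0134). Mef2c, an activity-regulated factor, was higher (152, 183 and 180 FPKM in Ctrl, 214, 216 and 216 FPKM in Gsk3sKO, log2 difference 0.33, unadjusted p = 0.0320). The abundant Nrgn and Camk2a, postsynaptic calmodulin-binding protein and kinase, were at means of 705 and 542 FPKM in Ctrl and 546 and 592 FPKM in Gsk3sKO (unadjusted p = 0.136 and 0.503).

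In the upper-layer class, Calb1, the calcium buffer calbindin, was lower (126, 69.4 and 63.3 FPKM in Ctrl, 55.9, 41.6 and 59.6 FPKM in Gsk3sKO, log2 difference -0.66, unadjusted p = 0.0375), with Ctrl library 1 far above the rest, and without that library the difference was -0.35 (unadjusted p = 0.0983). Calb1 is also a gene of interneurons and striatal neurons. Rasgrf2, the other abundant upper-layer gene, was at means of 75.7 and 68.9 FPKM (unadjusted p = 0.398). All 6 upper-layer genes of this class had log2 differences below 0, from -0.66 to -0.04, beside 58.9% of all gene totals tested. Only 4 of 6 were below 0 after median-ratio rescaling or without Gsk3sKO library 3, and 5 of 6 without Ctrl library 2. The call of Calb1 was the only one among these 6 genes. It was lost after median-ratio rescaling (unadjusted p = 0.0719 in limma) and with no filter (unadjusted p = 0.0679).

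In the layer 5 class, Etv1, an ETS factor, was lower (9.92, 9.65 and 13.3 FPKM in Ctrl, 7.45, 5.26 and 8.36 FPKM in Gsk3sKO, log2 difference -0.58, unadjusted p = 0.0322). Tshz2, a zinc finger factor, was higher (2.03, 2.65 and 0.615 FPKM in Ctrl, 3.98, 4.29 and 2.94 FPKM in Gsk3sKO, log2 difference 0.85, unadjusted p = 0.0427). Without Ctrl library 3 these differences were -0.45 and 0.50 (unadjusted p = 0.122 and 0.149), and as a fragment total Etv1 differed by -0.20 (unadjusted p = 0.386). Tshz2 was not called with no filter (unadjusted p = 0.0722). The abundant Crym and Ldb2 gave an unadjusted p = 0.169 and 0.945. No gene was called in the layer 4 class, where Whrn and Rspo1 were at means of 5.95 and 1.69 FPKM in Ctrl and 4.87 and 1.32 FPKM in Gsk3sKO, nor among the 8 tested layer 6 genes, where Cplx3 and Rprm were at means of 13.2 and 11.7 FPKM in Ctrl and 14.2 and 8.52 FPKM in Gsk3sKO (unadjusted p = 0.863 and 0.0778). The deep-layer gene Tbr1 was thus called and these other layer 6 genes were not, but the call does not set Tbr1 apart in size. Rprm had a log2 difference of -0.41, beside -0.40 for Tbr1, while that of Cplx3 was 0.05. The median over the 8 tested layer 6 genes was -0.13. The difference between Tbr1 and these genes was not tested.

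**Figure D5:**
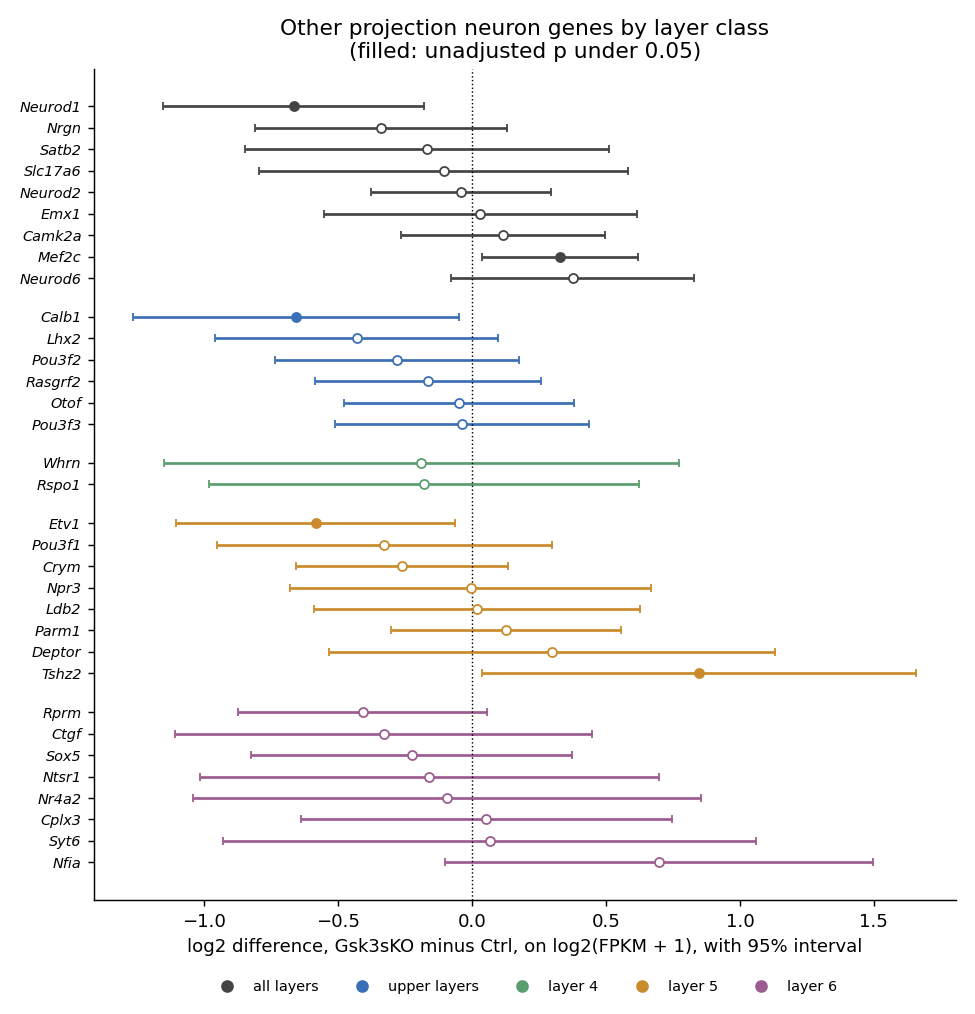
Log2 difference between Gsk3sKO in mPFC D2 and Ctrl with its 95% interval for the 33 other projection neuron genes tested, by layer class (colour), with filled points at an unadjusted limma p under 0.05. The 5 filled points lie on both sides of 0, and the 6 upper-layer points lie below it, 4 of them also after median-ratio rescaling.

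Some genes of other cells differed between the groups. Among 6 oligodendrocyte genes, 3 were called and lower in Gsk3sKO, including Mog at 3.996, 3.02 and 2.67 FPKM in Ctrl and 1.81, 0 and 0 FPKM in Gsk3sKO, while the sum of the 6 overlapped (118 to 183 FPKM against 128 to 165 FPKM). Among 4 microglial genes tested, 1 was called and lower, and the sums over 5 genes were 12.1 to 17.6 FPKM and 10.4 to 14.9 FPKM. None of 10 GABAergic, 9 striatal, 6 astrocyte and 5 endothelial genes tested was called in limma at an unadjusted p under 0.05, and their sums overlapped between groups. The part of these cells in the Tbr1 and Cux2 values was not tested.

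For each gene the gene total with the most similar profile over the 6 libraries was found by the root mean square difference of log2(FPKM + 1), centred on each gene's mean, among 12874 gene totals. Slc17a7 was nearest to Map2k1 (0.03), Cux1 to Trim2 (0.03), Cux2 to Tshz3 (0.04), Rorb to Rbm14 (0.06), Fezf2 to Imp4 (0.05), Bcl11b to Stx3 (0.08), Tbr1 to Mmd2 (0.03), Foxp2 to Gm15672 (0.07) and Tle4 to Rpl39 (0.02). No 2 of the 9 genes were nearest to each other. For the pair lower in Gsk3sKO, Mmd2 was at 12.04, 14.03 and 13.96 FPKM in Ctrl and 11.1, 10.4 and 8.30 FPKM in Gsk3sKO, and Tshz3, a zinc finger factor, was at 14.6, 16.8 and 15.7 FPKM in Ctrl and 12.3, 10.47 and 12.8 FPKM in Gsk3sKO. With 6 libraries and this many gene totals, some close profile is found for any gene, and nothing is drawn from it.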

How the data were processed

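The authors deposited FPKM per transcript and library, which the submitters' processing notes link to HISAT2 2.1.0, SAMtools 1.9, StringTie 1.3.4d and GRCm38. Tool settings: not given in the sources used here. The authors' deposited fold (ratio), p-value and q-value columns were not used. FPKM was summed by gene identifier, and lengths and exons were taken from GENCODE M21 (114237 transcripts matched, 983 not). Group differences were fitted with limma 3.58.1 (R 4.3.3, eBayes with trend) on log2(FPKM + 1), for a mean of at least 1 FPKM, 2-sided, with Benjamini-Hochberg adjustment over all features. A call is an unadjusted p under 0.05. A log2 difference on this scale understates the change of low genes. Tested on simulated data drawn for these gene totals, the fit gave: 84% of genes changed by 1 log2 unit were called, and 5.27% of unchanged genes. After adjustment 38% of those changed genes passed. Genes as low as Rorb and Foxp2 were not among the changed ones, and changes as small as those of Cux2 and Tbr1 were not simulated. Read depth could not be recovered from the values, since at best 32.0% of low values in a library lay within 0.02 of a whole read, so no counting intervals are given. Libraries with the same number did not deviate together (correlations of their deviations across genes of -0.03, -0.01 and -0.08), so the numbers were not taken to pair them. The 9 genes and all lists were chosen with earlier results of these data known. The text names all 9 genes, their lead and called transcripts and up to 3 next ones, and, of the other projection neuron genes, those called and the 2 most abundant of each class. Python 3.11.15 and matplotlib 3.10.9 made the tables and figures.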

Additional observations from a re-analysis of the deposited data

How the results depend on the processing

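Against 2 marker gene totals called, 1 was called with the replicate block (Cux2, with Tbr1 at an unadjusted p = 0.0575 in limma), 1 on the fragment scale (Tbr1), and 0 to 3 of the 9 when a library was left out, the third being Bcl11b without Ctrl library 1. The 1 called transcript was lost (0 called) with no filter, after median-ratio rescaling and with the replicate block, and 0 to 2 of all marker transcripts were called without a library. Against 5 calls among all other projection neuron genes, there were 3 with no filter and 1 to 6 without a library, counted over all genes of that list. The lead-transcript share was apart between groups for 1 gene, and for 1 to 2 without a library. Over all transcripts, 1200 calls became 1917 with no filter and 590 at a mean of at least 5 FPKM. Signs turned for Foxp2 (0.14) to -0.17 on the fragment scale and within -0.28 to 0.47 over the libraries left out (-0.28 without Gsk3sKO library 2), for Cux1 (0.03) in a range of -0.054 to 0.12 and for Fezf2 (0.06) in a range of -0.0498 to 0.23 over the libraries left out. Leaving out a library gave -0.50 to -0.34 for Cux2 and -0.47 to -0.30 for Tbr1. The block changed no call among the other 7 markers. Rorb and Foxp2 could not be tested at a mean of at least 5 FPKM. The cause of these shifts was not tested. FPKM gives no read counts, so the genes under 5 FPKM carry an unknown counting error.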
